A study of Mus musculus with 12 samples.

Results

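The MEK1/2 kinases were blocked with PD184252 while P14 cytotoxic T lymphocytes (CTL) met their antigen, and the mRNA of these cells was compared with that of CTL triggered without the inhibitor. The members are the 3 cultures labelled as TCR-stimulated for 4 h with MEKi and the 3 labelled as TCR-stimulated for 4 h alone, 6 of the 12 cultures of the series, read over all 11022 genes of the deposited table. All CTL came from P14 mice, whose T cells carry 1 transgenic T cell receptor (TCR) for the viral peptide gp33-41. The methods give females 9 to 13 weeks old for the unstimulated, TCR and PI3Kdi cultures, and for the MEKi cultures age and sex are not given in the sources used here. Cells from the lymph nodes or spleens of 3 mice gave the 3 biological replicates, were expanded in interleukin-2 (IL-2) and stayed in 20 ng/mL IL-2 throughout. Stimulation was 100 ng/mL gp33-41, the inhibitor was PD184252 at 2 µM, and cultures without an inhibitor received its vehicle, DMSO. Unstimulated cultures and cultures with peptide plus the PI3K p110δ inhibitor IC87114 (PI3Kdi) at 10 µM serve below as reference values. The model is limited to 1 receptor specificity, 1 dose and 1 time, and no culture received PD184252 without peptide, so an effect of the inhibitor on resting CTL was not measured.

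The receptor of a T cell switches on the small GTPase RAS, which starts a kinase relay from RAF through MEK1/2 to the kinases ERK1 and ERK2. ERK phosphorylates transcription factors of the TCF family that act with SRF at short promoter motifs called CArG boxes, and it stabilises FOS proteins, which pair with JUN proteins to form AP-1. The first genes to respond encode EGR and FOS factors and the DUSP and Sprouty proteins that damp the relay, and cytokine genes follow. Other branches of the receptor signal, through calcium and NFAT, protein kinase C and NF-κB, or PI3K, run beside the relay and reach many of the same genes.

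Values are FPKM, fragments scaled by the length of the transcript and the size of the library, so levels of different genes can be set side by side per length. A change is the difference in log2(FPKM + 0.1) between MEKi and TCR alone, given with its standard error, and it understates the fold of genes with low levels. The test was limma over all 12 cultures with Benjamini-Hochberg adjustment over 11022 genes. A gene rose or fell where its adjusted p was under 0.05, a called change was also over 2-fold, and a small change was at most 2-fold. The 3 values of a group are listed in the order of the replicate numbers. The libraries held the equivalent of 7820000 to 9810000 assigned fragments, replicates correlated at r = 0.993 to 0.994 on the log scale, and between 6 and 17 genes per library were listed at 0. All 8 CTL markers of the list were present. B cell, neutrophil and erythroid markers had 0 of their 11 genes in the table, and the CD4 T cell list had 2 of 3. The lists for macrophages or dendritic cells, NK cells and mast cells or basophils had 1 gene each, at 0.43 to 0.65 FPKM for the first and 1.63 to 1.88 FPKM for the second with TCR alone. The last was Mcpt8, a protease of basophils that CTL can also express, at 20.4, 19 and 15 FPKM with TCR alone and 4.99, 9.73 and 7.57 FPKM with MEKi. In bulk mRNA such as this a smaller number of expressing cells and less mRNA per cell cannot be told apart.

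With the inhibitor 277 genes were called lower and 108 called higher, 2.51% and 0.98% of all genes and 3.49% together. A further 1733 genes (15.7%) showed a small fall and 1972 (17.9%) a small rise, so that 37.1% of the table passed the test. With both sizes together 18.9% of all genes rose and 18.2% fell, and each class count below is to be read beside these shares. Called falls were deeper and sat at higher levels than called rises: the median change was 2.79-fold among the former, at a median level of 4.56 FPKM, and 2.26-fold among the latter, at 1.70 FPKM. The values of the 3 MEKi cultures lay wholly outside those of the 3 TCR cultures for 276 of the 277 and 106 of the 108, where 24.1% of all genes had separate groups with MEKi lower and 24.6% with MEKi higher. The balance of directions depends on the scale. The FPKM of a library summed to between 620715 and 666922 with TCR alone and to between 524343 and 539350 with MEKi, and rescaling each library to the same sum (TPM) raised the median change over all genes from 0.01 to 0.27. On the TPM scale 366 genes were called higher and 212 lower, so called falls went from 277 of 385 to 212 of 578. The mRNA of Ifng, Ccl3, Ccl4, Xcl1 and Ccl1 accounted for 12.2%, 11.3%, 10%, 5.44% and 3.7% of the 106396 FPKM by which the mean sums differed, 42.6% together. At an adjusted p under 0.05 alone, 50.2% of genes were higher and 5.79% lower on the TPM scale.

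**Figure D1:**
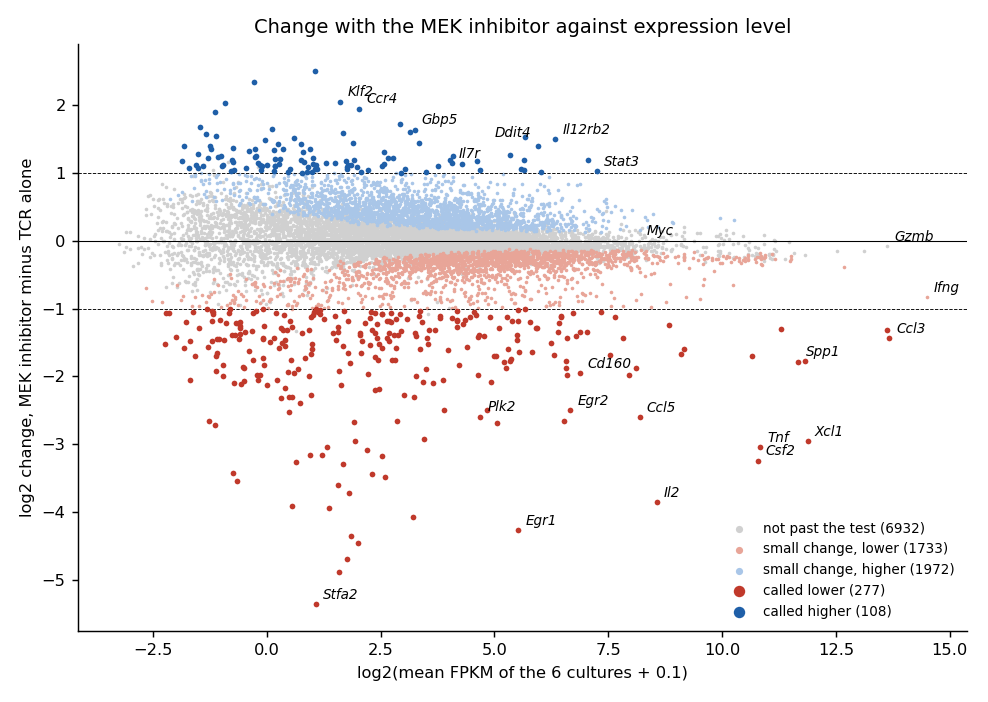
Change in log2(FPKM + 0.1) between MEKi and TCR alone (vertical axis) against log2 of the mean FPKM of the 6 cultures plus 0.1 (horizontal axis), 1 point per gene, coloured by call, with dashed lines at a 2-fold change and selected genes named. Called falls (277) reach abundant cytokine and chemokine mRNA such as Ccl3 and Xcl1, called rises (108) lie mostly at lower levels with Stat3 and Il12rb2 among the most abundant, and on the TPM scale, where the median of all genes is 0.27, 366 are called higher and 212 lower.

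EGR factors, feedback inhibitors and other immediate-early genes had more falls than rises on all 3 scales. EGR factors are zinc finger activators induced within minutes of ERK activity, and NAB proteins bind them and limit them. Of 5 members measured, 3 were called lower, 1 showed a small fall and 1 a small rise, with a median change of -1.29. Egr1 stood at 36.4, 35.4 and 39.8 FPKM in unstimulated cultures, at 76.3, 89.2 and 97 FPKM with TCR alone and at 3.76, 5.51 and 4.13 FPKM with MEKi. The MEKi values of Egr1 were below those of every other culture of the series, unstimulated ones included, and its change was -4.27 ± 0.12 (adjusted p = 2.14e-11). Egr2, which was barely present before stimulation (1.41, 1.52 and 1.47 FPKM), read 163, 174 and 178 FPKM with TCR alone and 25, 37.8 and 29.4 FPKM with MEKi. Its change was -2.50 ± 0.11 (adjusted p = 1.63e-09), and with MEKi it kept a level well above that of the unstimulated cultures. Egr3 went from 64.1, 79.1 and 119 to 26.8, 43.3 and 35.6 FPKM, a change of -1.29 ± 0.24. The co-repressor Nab2 fell by 0.68 and Nab1 rose by 0.32, both on the log2 scale.

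The promoter of Egr2 is shown because it holds a CArG box, the type of motif through which ERK-activated TCF proteins and SRF act. The sequence is the 150 bases before 1 of the 5 annotated starts of the gene, from RefSeq in build GRCm38.p6, at chr10:67537719-67537868 on the plus strand, with the CArG box in capitals, beginning 72 bases before the start:

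Egr2: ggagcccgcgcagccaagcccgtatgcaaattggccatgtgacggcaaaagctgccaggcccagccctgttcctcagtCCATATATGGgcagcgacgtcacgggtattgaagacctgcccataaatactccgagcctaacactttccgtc

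A CArG box was present in 1.63% of all 32851 RefSeq promoter windows, searched on both strands from 250 bases before to 50 bases after each start, and in 1.46% of the 8857 genes of the table that have a window. Among called falls 4 of 197 genes with a window held one (2.03%), namely Egr2, Hemgn, Igf2 and Kctd15, and among called rises 3 of 84 (3.57%), namely Asb2, Gpr183 and Serpinc1. These shares rest on so few genes that no difference can be read from them. The called falls Egr1, Egr3, Fos and Fosb were not among the genes counted with a box. A box farther from the start was not searched for. Hemgn, Kctd15 and Gpr183 are named only as members of these counts.

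DUSP phosphatases remove phosphate from ERK and related kinases, and Sprouty and SPRED proteins act higher up at RAS and RAF. Of 17 members 6 were called lower, 3 showed small falls, 8 did not pass the test and 0 rose, while on the TPM scale 9 fell and 3 rose. Dusp6, a phosphatase selective for ERK, read 88, 87 and 88.7 FPKM unstimulated, 80.3, 90 and 87.6 FPKM with TCR alone and 22.7, 33.5 and 27.6 FPKM with MEKi. Its unstimulated and TCR values overlapped and every MEKi culture lay below both, with a change of -1.63 ± 0.10 (adjusted p = 2.23e-08). Dusp2, a nuclear phosphatase of activated lymphocytes, went from 311, 271 and 273 to 81.4, 96.6 and 87.3 FPKM (-1.69 ± 0.09), and Spry1 from 55.1, 48.5 and 42.3 to 14.5, 16.7 and 13.4 FPKM (-1.71 ± 0.18). The groups did not overlap for any of these 3 genes. Dusp4 (-1.19), Spry4 (-1.09) and Dusp9 (-1.01) were also called lower, while Dusp5 (-0.76), Spry2 (-0.80) and Spred1 (-0.77) fell by less than 2-fold. Dusp4, Spry4 and Dusp9 were not called on the TPM scale. Dusp1, a phosphatase induced by many stresses, had a change of -0.18 ± 0.10 that did not pass the test (0.0816 on the TPM scale).

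AP-1 is assembled from FOS and JUN proteins, and BATF proteins join JUN at sites shared with IRF4. Of 16 members 4 were called lower and 2 showed small falls, 4 showed small rises and 6 did not pass, and the median change of -0.13 became 0.13 on the TPM scale. Fos, Fosb and Fosl1 fell, whereas Fosl2 rose, and Jun, Junb and Batf did not pass the test. Fos read 9.1, 9.53 and 9.45 FPKM with TCR alone and 3.21, 3.84 and 2.93 FPKM with MEKi, a change of -1.47 ± 0.22 (adjusted p = 0.000116). Fosb went from 2.55, 2.4 and 2.3 to 0.57, 0.55 and 0.61 FPKM (-1.89 ± 0.21), with Fosl1 (-1.18) and the small partner Maff (-1.31) called lower too. Junb, by far the most abundant member, read 244, 198 and 238 FPKM with TCR alone and 207, 197 and 224 FPKM with MEKi, ranges that overlap. Its change was -0.11 ± 0.11 (adjusted p = 0.466), and 0.15 on the TPM and 0.0488 on the quantile scale, and that of Batf was -0.09 (0.18 on the TPM and 0.0491 on the quantile scale). Jun changed by -0.17 ± 0.07, with an adjusted p of 0.0658 and of 0.0374 with a replicate block, and by 0.0889 on the TPM scale. Batf3 (0.76), Bach2 (0.45) and Fosl2 (0.41) rose by less than 2-fold on all 3 scales.

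Among 31 other immediate-early and ERK-output genes, 8 were called lower, 11 showed small falls and 3 small rises, and the median was -0.54. Epha2, a receptor for ephrins, went from 6.62, 5.84 and 6.66 to 0.48, 0.48 and 0.25 FPKM (-3.72 ± 0.18, adjusted p = 3.31e-09). Areg, which encodes the EGF receptor ligand amphiregulin, went from 9.15, 8.65 and 8.76 to 0.95, 0.35 and 1.09 FPKM (-3.44 ± 0.30). Phlda1 read 59.5, 60 and 60.3 FPKM and then 15, 16.9 and 17 FPKM (-1.87 ± 0.09). For all 3 genes the highest MEKi culture lay well below the lowest TCR culture. Ccnd1 (-1.84), Trib1 (-1.40) and Ptgs2 (-1.26) were called lower as well. Myc, which drives growth of activated T cells, is an ERK-output gene that did not follow: it read 298, 267 and 306 FPKM with TCR alone and 278, 288 and 305 FPKM with MEKi, a change of 0.00 ± 0.06 (adjusted p = 0.992), and on the TPM scale, where the median of all genes is 0.27, its change was 0.26. The NR4A nuclear receptors, whose transcription follows the strength of the TCR signal, fell in 3 of 3 cases, although the small fall of Nr4a3 (-0.44) did not pass on the TPM (-0.18) or quantile (-0.27) scale. Nr4a1 went from 173, 139 and 194 to 66.3, 64.5 and 66.5 FPKM (-1.35 ± 0.11), and Nr4a2 changed by -1.35.

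**Figure D2:**
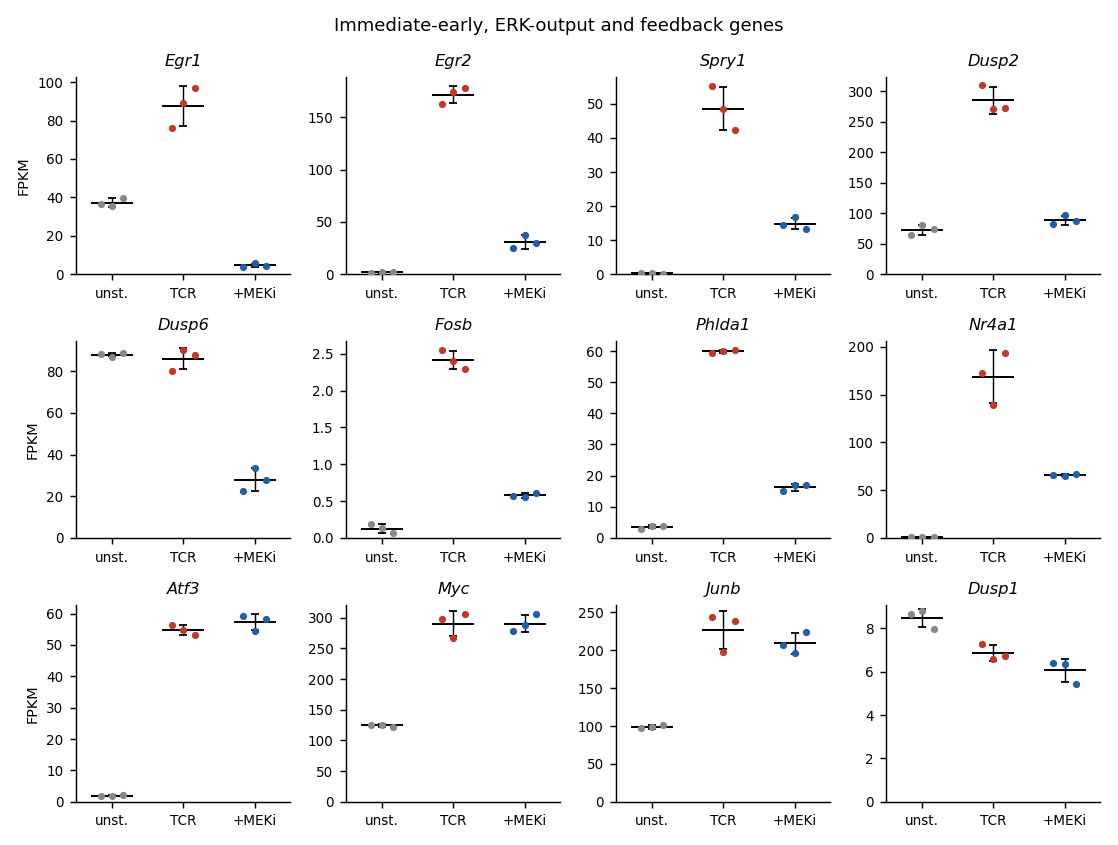
FPKM (vertical axes, linear from 0) of 12 immediate-early, ERK-output and feedback genes in the unstimulated, TCR and MEKi cultures, with points for the 3 cultures of a group, a line at the mean and bars for the SD. The MEKi points of Egr1, Egr2, Spry1, Dusp2, Dusp6, Fosb, Phlda1 and Nr4a1 lie below all TCR points, those of Egr1 and Dusp6 also below the unstimulated points, and those of Myc and Junb lie among the TCR points.

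By rank, the 15 largest falls among genes with a mean of at least 1 FPKM in either of the compared groups held secreted factors, cell surface proteins, transporters and transcription factors. Cd63, a tetraspanin of lysosomes and secretory granules, went from 19.2, 16.1 and 16.6 to 0.98, 1.11 and 0.74 FPKM (-4.07 ± 0.17, adjusted p = 1.42e-09). Il27, a subunit of the cytokine IL-27, read 5.38, 4.57 and 6.8 FPKM with TCR alone and was listed at 0 in MEKi cultures 1 and 3, with 0.59 FPKM in culture 2. Il1a, encoding the alarmin IL-1α, went from 7.37, 7.35 and 5.48 to 0.13, 0.48 and 0.17 FPKM (-4.36 ± 0.36), and its locus overlaps another annotated gene, so reads could be shared. The RNA-editing family member Apobec2 was at least 10.9-fold lower, the insulin-like growth factor gene Igf2 at least 16.3-fold, the tetraspanin-like Tm4sf19 at least 23.6-fold and the calcium-binding S100a3 at least 15.8-fold, each against a floor of 3 reads per library. Stfa2, a stefin with near-identical copies next to it, was listed at 0 in all 3 MEKi cultures. Slc45a3 (-3.95), Wnt1 (-3.60) and Sp7 (-3.49) complete the ranked list with Egr1, Epha2, Areg and Il2.

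Many called falls were products that CTL secrete. Of 38 interleukins, colony-stimulating factors and growth factors in the table, 15 were called lower, 7 showed small falls, 4 small rises and 1 was called higher, and the median was -0.66. Il2, the T cell growth factor, read 0.19, 0 and 0 FPKM unstimulated, 649, 704 and 763 FPKM with TCR alone and 33, 67.1 and 51.9 FPKM with MEKi. The change was -3.85 ± 0.34 (adjusted p = 9.45e-07), and with PI3Kdi the values were 64.5, 84.8 and 112 FPKM. Il3, which supports myeloid progenitors, went from 2850, 2346 and 2195 to 679, 930.2 and 677 FPKM (-1.70 ± 0.26). The Th2-type cytokine Il13 went from 14.4, 11.1 and 14.5 to 2.63, 2.51 and 2.81 FPKM (-2.28 ± 0.22). Il10, an inhibitory cytokine and one of the most abundant mRNA of the stimulated cells, read 3893, 3397 and 3346 FPKM and 1425, 1576 and 1308 FPKM (-1.30 ± 0.12, and -0.92 after quantile normalisation). Spp1, encoding the matrix protein osteopontin, stood at 4765, 4964 and 5466 FPKM with TCR alone, at 5099, 4994 and 5471 FPKM with PI3Kdi and at 1250, 1581 and 1610 FPKM with MEKi. Its change against TCR alone was -1.78 ± 0.12 (adjusted p = 1.01e-07). The groups did not overlap for any of these genes.

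Further called falls were Il17f (-3.16), Pdgfb (-2.50), Clcf1 (-1.77), Il24 (-1.24) and Il6 (-1.23). The granulocyte-macrophage factor Csf2 read 3211, 3106 and 3299 FPKM with TCR alone and 258, 451 and 332 FPKM with MEKi, without overlap (-3.24 ± 0.15). Ifng, the effector cytokine interferon-γ and the most abundant mRNA of these stimulated cells, fell by less than 2-fold (-0.84 ± 0.09, from 31000, 29550 and 28240 to 15630, 18250 and 15970 FPKM), and its change was 0.00 after quantile normalisation, which ties the top ranks of all libraries together. Not all cytokines fell. Il22, which acts on epithelia and has a near-identical neighbour, read 8.01, 5 and 4.97 FPKM with TCR alone and 13.9, 10.3 and 11 FPKM with MEKi (0.98 ± 0.20, adjusted p = 0.00161). Ebi3, the partner of Il27 in IL-27, rose by 0.54. Tgfb3 was the single called rise of the class (1.90 ± 0.43), at 0.12, 0.06 and 0.06 FPKM with TCR alone and 0.97, 0.25 and 0.68 FPKM with MEKi.

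Chemokines recruit other leukocytes to CTL. Of 11 measured, 7 were called lower, 1 showed a small fall, 2 did not pass and 1 was called higher, with a median of -1.44. Ccl5, an abundant chemokine of effector CD8+ T cells, went from 568, 449.8 and 481 to 70.9, 90.9 and 85.1 FPKM (-2.60 ± 0.11, adjusted p = 1.63e-09), while the PI3Kdi cultures read 379.6, 311 and 336 FPKM. Ccl1 went from 6220, 5016 and 5529 to 1404, 1935 and 1614 FPKM (-1.77 ± 0.15), and Ccl9 from 126, 125 and 112 to 38.2, 39.7 and 34.3 FPKM (-1.69 ± 0.09). Xcl1, which attracts cross-presenting dendritic cells, went from 6960, 6626 and 6403 to 710.5, 1134 and 777 FPKM (-2.96 ± 0.27). Each of these chemokines had separate groups. Ccl22 (at least 4.47-fold lower, near the floor), Ccl3 (-1.44) and Ccl4 (-1.31, and -0.32 after quantile normalisation) were the other called falls. Cxcl10, an interferon-induced ligand of CXCR3, moved the other way, from 2.61, 2.01 and 3.52 to 6, 4.94 and 5.47 FPKM (1.02 ± 0.21).

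TNF superfamily ligands are membrane or secreted trimers through which CTL act on neighbouring cells. Of 13 measured, 7 were called lower, 2 showed small falls and 1 a small rise, and the median was -1.12. Tnf itself went from 3026, 3186 and 3544 to 276, 567 and 384 FPKM (-3.05 ± 0.19, adjusted p = 3.33e-08). Lta, encoding lymphotoxin-α, went from 381, 371 and 432 to 81.9, 123 and 97.4 FPKM (-1.98 ± 0.12). Cd70, the ligand of CD27, read 41.4, 38.3 and 38.4 FPKM with TCR alone, 2.61, 2.52 and 3.32 FPKM with PI3Kdi and 8.74, 10.3 and 10.9 FPKM with MEKi, so that the MEKi cultures lay between those with the other treatments (-1.97 ± 0.20 against TCR alone). Tnfsf8 (-1.97), Cd40lg (-1.51), Tnfsf9 (-1.39) and Ltb (-1.12) were called lower, and Tnfsf14 (-0.97) and Tnfsf11 (-0.96) just missed 2-fold. Fasl, the death ligand of CTL, read 39.5, 38.4 and 41 FPKM with TCR alone and 36.9, 35.8 and 37 FPKM with MEKi. These narrow groups do not overlap, but the change of -0.12 ± 0.05 did not pass the test (adjusted p = 0.103) and was 0.15 on the TPM scale. Of the 19 receptors of the family in the table only Tnfrsf12a was called lower (-1.11), 5 showed small falls and 3 small rises, and the median of -0.07 became 0.19 on the TPM scale.

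**Figure D3:**
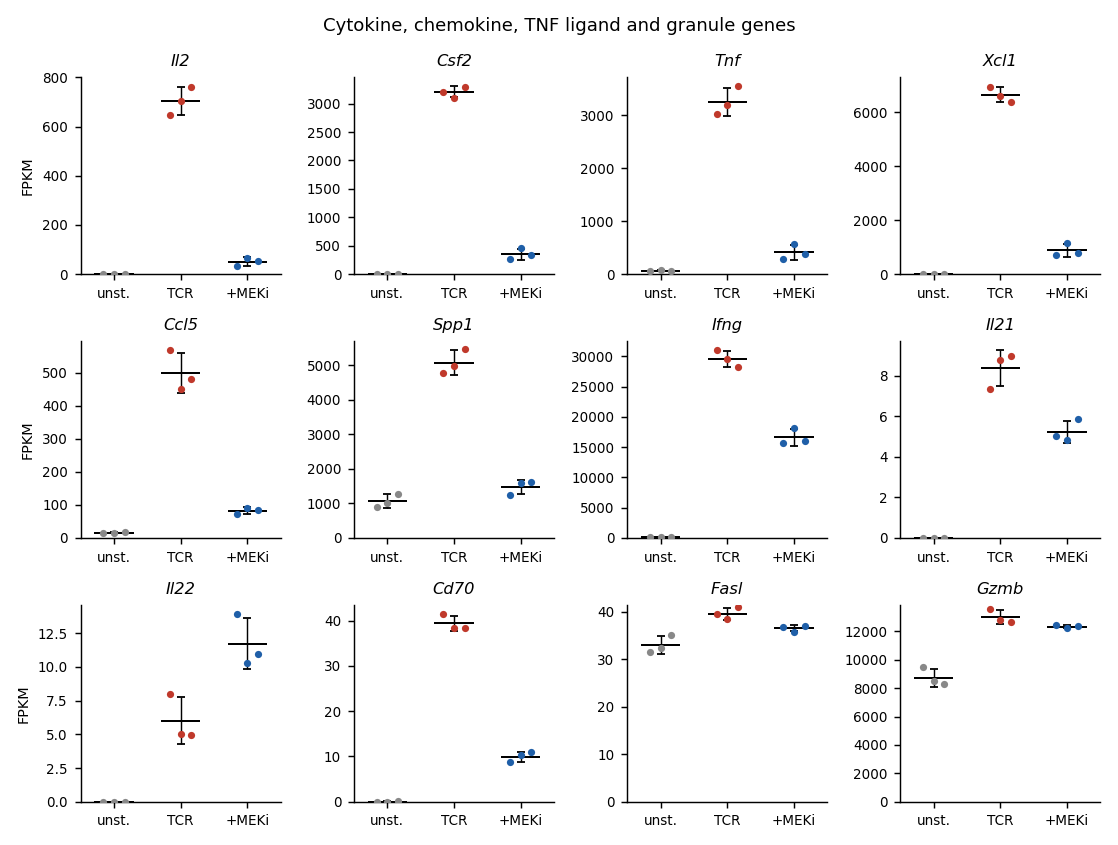
FPKM (vertical axes, linear from 0) of 12 cytokine, chemokine, TNF ligand and granule genes in the unstimulated, TCR and MEKi cultures, with points for the 3 cultures of a group, a line at the mean and bars for the SD. The MEKi points of Il2, Csf2, Tnf, Xcl1, Ccl5 and Spp1 lie far below the TCR points, those of Ifng lie between the unstimulated and TCR points, Il22 is higher with MEKi, and Gzmb differs little.

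The promoters of 5 genes with an AP-1 site are shown, since members of several classes of called falls hold that motif near their start. No test was run on the shares that follow. The motif searched was TGANTCA on both strands, which also includes the core of larger NFAT and BATF composite sites. It occurred in 7.81% of all windows and in 5.95% of table genes with a window. Among called falls it occurred in 31 of 197 (15.7%), among called rises in 8 of 84 (9.52%), among small falls in 97 of 1403 (6.91%) and among small rises in 89 of 1594 (5.58%). Il1a and Ccl9 were described above, Mmp13 is a collagenase that went from 13.3, 8.96 and 10.1 to 3.7, 3.24 and 2.45 FPKM (-1.75 ± 0.29), and Srxn1 encodes sulfiredoxin, an antioxidant enzyme that went from 71, 58.7 and 60.8 to 18.9, 18.5 and 18.9 FPKM (-1.75 ± 0.07). Mmp13 and Srxn1 were picked for display after their values were seen. Ccr4 is a called rise described below and is shown for contrast. Each line gives the 150 bases before the RefSeq start in build GRCm38.p6, with matches in capitals. The stretches lie at chr2:129309973-129310122 (minus strand), chr11:83578637-83578786 (minus), chr9:7272364-7272513 (plus), chr2:152105374-152105523 (plus) and chr9:114496545-114496694 (minus).

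Il1a: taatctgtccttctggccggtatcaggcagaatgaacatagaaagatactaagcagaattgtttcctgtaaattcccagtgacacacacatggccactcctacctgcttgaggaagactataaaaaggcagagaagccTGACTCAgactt
Ccl9: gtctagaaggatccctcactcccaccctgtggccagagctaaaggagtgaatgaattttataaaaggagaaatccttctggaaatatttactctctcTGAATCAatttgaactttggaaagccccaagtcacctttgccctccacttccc
Mmp13: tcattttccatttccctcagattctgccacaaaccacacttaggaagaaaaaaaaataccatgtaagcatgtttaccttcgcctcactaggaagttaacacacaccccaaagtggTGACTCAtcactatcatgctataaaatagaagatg
Srxn1: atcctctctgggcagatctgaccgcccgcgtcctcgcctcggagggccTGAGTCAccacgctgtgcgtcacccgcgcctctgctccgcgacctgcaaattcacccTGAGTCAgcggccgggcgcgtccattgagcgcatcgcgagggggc
Ccr4: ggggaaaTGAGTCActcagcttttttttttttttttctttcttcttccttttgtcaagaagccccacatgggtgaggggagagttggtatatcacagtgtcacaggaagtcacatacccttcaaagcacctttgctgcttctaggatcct

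The match begins 12 bases before the start in Il1a, 53 in Ccl9 and 35 in Mmp13, at 102 and 45 bases in Srxn1, and at 143 bases in Ccr4. A match is a stretch of letters and not a measured binding site.

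Costimulatory and inhibitory receptors set the threshold of the T cell response. Of 32 measured, 5 were called lower, 14 showed small falls, 5 small rises and 1 was called higher, with a median of -0.50. Cd160, a receptor for HVEM, went from 190.5, 184 and 188 to 44.5, 55.1 and 45.8 FPKM (-1.96 ± 0.08, adjusted p = 1.35e-09). Crtam, an adhesion receptor of activated CD8+ T cells, went from 854, 831 and 820.5 to 229.8, 308 and 255 FPKM (-1.67 ± 0.11). Slamf1 (-1.70), Cd6 (-1.27) and the checkpoint receptor Tigit (-1.13) were called lower too. The checkpoint genes did not move as 1 block: Lag3 fell by 0.84 and Havcr2 by 0.40 on the log2 scale, Ctla4 rose by 0.46, and Pdcd1, at 227, 205 and 199 FPKM with TCR alone and 213, 203 and 199 FPKM with MEKi, did not pass the test (-0.04 ± 0.14, and 0.23 on the TPM and 0.11 on the quantile scale). The fall of Havcr2 did not pass on the TPM scale. The rise of Ctla4 did not pass without TCR culture 2 or 3, or without MEKi culture 1 or 3. Cd226, the activating receptor that shares ligands with TIGIT, read 3.91, 4.01 and 4.06 FPKM with TCR alone and 9.69, 9.2 and 9.59 FPKM with MEKi, without overlap, and was called higher (1.23 ± 0.13). Icos rose by 0.81, a small change.

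Cytolytic granule genes changed little at the median. Of 27 members 1 was called lower, 8 showed small falls, 2 small rises and 16 did not pass, and the median of -0.08 became 0.19 on the TPM scale. Falls made up 33.3% and rises 7.41%, against 18.2% and 18.9% of all genes, but on the TPM scale 3 fell and 11 rose. On all 3 scales 3 fell and 2 rose. The called member was Serpinb6b, a serpin that inhibits granzyme, from 900.2, 903 and 793 to 283, 321 and 260 FPKM (-1.59 ± 0.08). Prf1, the pore-forming perforin, fell by 0.65 and Gzma, a granzyme, by 0.38 on the log2 scale. The fall of Gzma did not pass the test on the TPM (-0.12) or quantile (-0.04) scale. Gzmb, the main granzyme, read 13580, 12790 and 12650 FPKM with TCR alone and 12410, 12230 and 12340 FPKM with MEKi, a change of -0.08 ± 0.09 that did not pass the test and that was above zero on the TPM (0.19) and quantile (0.51) scales. Among 31 transcription factors of T cell fate, 2 were called lower, 8 showed small falls and 8 small rises. Falls made up 32.3% and rises 25.8%, against 18.2% and 18.9% of all genes. On the TPM scale 0 were called lower and 4 called higher, with 6 falls and 15 rises in all. After quantile normalisation 4 were called lower. Tbx21, encoding the effector factor T-bet, went from 58.5, 45.5 and 54.9 to 24.6, 23.8 and 24.1 FPKM (-1.12 ± 0.11, adjusted p = 2.49e-06), and Zeb2, which acts with T-bet, changed by -1.14 ± 0.16. Eomes, the second T-box factor of CTL, fell by 0.53 on the log2 scale.

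The 108 called rises included homing and quiescence genes that are high in resting lymphocytes, cytokine receptors and signalling genes. Of 34 genes linked to KLF2 and FOXO in lymphocytes, 6 were called higher, 11 showed small rises, 5 small falls and 12 did not pass, and the median was 0.34. Rises made up 50% and falls 14.7%, against 18.9% and 18.2% of all genes. The class did not move as 1 block. Its summed level went from between 1554 and 1614 FPKM to between 1377 and 1535 FPKM with MEKi, the other way from its median. Klf2, a transcription factor that maintains lymph node homing, went from 1.41, 0.94 and 0.95 to 4.47, 4.78 and 5.18 FPKM (2.05 ± 0.21, adjusted p = 3.08e-06). Tsc22d3, encoding the glucocorticoid-induced leucine zipper protein GILZ, went from 6.3, 4.66 and 5.25 to 15.7, 14.2 and 14.4 FPKM (1.44 ± 0.12). Il7r, the survival receptor for IL-7, went from 9.99, 10.2 and 10.5 to 24.9, 19.6 and 24.4 FPKM (1.15 ± 0.15). All 3 had separate groups. Klf3 (1.31), the PI3K-binding Pik3ip1 (1.12) and the chromatin organiser Satb1 (1.04) were the other called rises of the class. Unstimulated cultures read 16.4, 9.23 and 13.6 FPKM of Il7r and 3.51, 3.55 and 4.48 FPKM of Tsc22d3.

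Cytokine receptors and the JAK-STAT relay decide which cytokines a T cell can hear. Of 31 receptor chains 2 were called higher and 8 showed small rises, against 4 small falls and 1 called fall, and the median was 0.18. Rises made up 32.3% and falls 16.1%, against 18.9% and 18.2% of all genes. Il12rb2, the signalling chain of the IL-12 receptor, went from 40.8, 41 and 43 to 139, 102 and 115 FPKM (2.83-fold, SE 0.10 on the log2 scale, adjusted p = 8.11e-08), while its partner Il12rb1 fell by 0.83 on the log2 scale. Ifngr1, a chain of the interferon-γ receptor, rose just short of 2-fold, from 50, 49 and 51.5 to 97, 93.4 and 98.6 FPKM (0.94 ± 0.05). The decoy receptor Il1r2 was called lower (-1.60). Among 22 JAK, STAT and SOCS genes 1 was called higher, 10 showed small rises, 5 small falls and 2 were called lower. That is 50% rising and 31.8% falling, both above the 18.9% and 18.2% of all genes. Stat3, the factor that carries signals of IL-6, IL-10 and IL-21, was the most abundant called rise, from 97.9, 102 and 101 to 205, 204 and 205 FPKM (1.03 ± 0.05, adjusted p = 3.93e-09). The feedback inhibitor Socs1 went from 27.5, 21.2 and 24.1 to 46.3, 46.1 and 51.7 FPKM (0.99 ± 0.12), and Socs3 (0.76) and Socs2 (0.79) rose as well. Jak2 (-1.11) and the kinase Pim3 (-1.07) were the called falls, but 0 genes of this class were called lower on the TPM or the quantile scale.

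Receptor-proximal genes changed in both directions. Of 45 genes of the TCR complex and proximal signalling, 2 were called higher, 10 showed small rises, 15 small falls and 18 did not pass, and the median of -0.08 became 0.18 on the TPM scale. Rises made up 26.7% and falls 33.3%, against 18.9% and 18.2% of all genes, and on the TPM scale 21 rose and 7 fell. Rasgrp1, the exchange factor that activates RAS downstream of the TCR, read 58.6, 58.2 and 54.3 FPKM unstimulated, 9.3, 9.69 and 10.1 FPKM with TCR alone and 22.7, 21.2 and 23.2 FPKM with MEKi. The MEKi cultures lay between the unstimulated and the TCR cultures, and the change against TCR alone was 1.20 ± 0.08 (adjusted p = 1.05e-07). Ptpn6, encoding the inhibitory phosphatase SHP-1, went from 29.8, 28.8 and 33.4 to 69.5, 65.3 and 75.1 FPKM (1.19 ± 0.07). The adaptors Lat (-0.90) and Lcp2 (-0.81) and the kinase Fyn (-0.90) showed small falls. Of 27 genes of the RAF, MEK and ERK relay 0 were called, 7 showed small rises, 4 small falls and 16 did not pass, so that 25.9% rose and 14.8% fell where 18.9% and 18.2% of all genes did. Among 26 NF-κB and NFAT genes 0 were called, 10 showed small falls and 5 small rises, which is 38.5% and 19.2% of the class. On the TPM scale 2 of these genes fell and 12 rose.

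Among the 15 largest rises of genes with a mean of at least 1 FPKM in either group, Ccr4, a chemokine receptor, went from 1.88, 1.34 and 1.39 to 8.97, 4.16 and 6.24 FPKM (1.95 ± 0.28, adjusted p = 0.000109). Samd1, which binds unmethylated CpG islands, went from 4.26, 4.09 and 4.38 to 14.3, 12.5 and 12.7 FPKM (1.61 ± 0.08, adjusted p = 3.4e-09). Gbp5, an interferon-induced GTPase with close paralogs, went from 4.95, 3.77 and 4.73 to 16.9, 11.7 and 14.1 FPKM (1.64 ± 0.16). P2ry14, a receptor for UDP-glucose, read 24.1, 24.4 and 29.8 FPKM with TCR alone and 77.7, 65.5 and 83.7 FPKM with MEKi (1.53 ± 0.09), the highest level in this ranked list after Il12rb2. Asb2, a ubiquitin ligase subunit, was highest in culture 1 of both groups: it read 5.56 FPKM against 2.21 and 2.58 FPKM with TCR alone, and 18.8 FPKM against 7.3 and 8.82 FPKM with MEKi, so the groups are separate by a narrow margin. It was higher with MEKi in 3 of 3 same-numbered pairs, with an adjusted p of 3.17e-08 with the replicate block, while the fit without the block gave a wide standard error (1.72 ± 0.46, adjusted p = 0.00938, and 1.31 without MEKi culture 1, which did not pass). Adcy6 (1.65), Prss16 (1.59), Cacnb3 (1.52), Mpp2 (1.49) and Fam102b (1.44) were further members. AI836003 and Serpinc1 head the list at low levels, and Serpinc1 lies antisense to another gene.

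Interferon-stimulated genes had more rises than falls on the FPKM and quantile scales. The same held on the TPM scale, but there 50.2% of all genes rose and 5.79% fell. Of 54 interferon-stimulated genes 2 were called higher, 21 showed small rises, 28 did not pass, 2 showed small falls and 1 was called lower, with a median of 0.32. In all 42.6% rose and 5.56% fell, where 18.9% and 18.2% of all genes did. On the TPM scale the median was 0.59, against 0.27 for all genes. Usp18, the protease that removes ISG15, rose by 1.02, and Ifih1, the RNA sensor MDA5, fell by 1.59 on the log2 scale. Among 25 BCL2 family and death genes the BH3-only gene Bmf was called higher (1.03 ± 0.29), 8 showed small rises, 2 small falls and 2 were called lower. The latter were the anti-apoptotic Bcl2a1d (-1.40) and Bcl2a1b (-1.13), near-identical copies whose reads cannot be separated with certainty. In this class 36% rose and 16% fell, where 18.9% and 18.2% of all genes did. The integrin chain Itga4 was called higher (1.35 ± 0.21), whereas Itga3, an integrin chain for laminin, was called lower (-1.89).

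**Figure D4:**
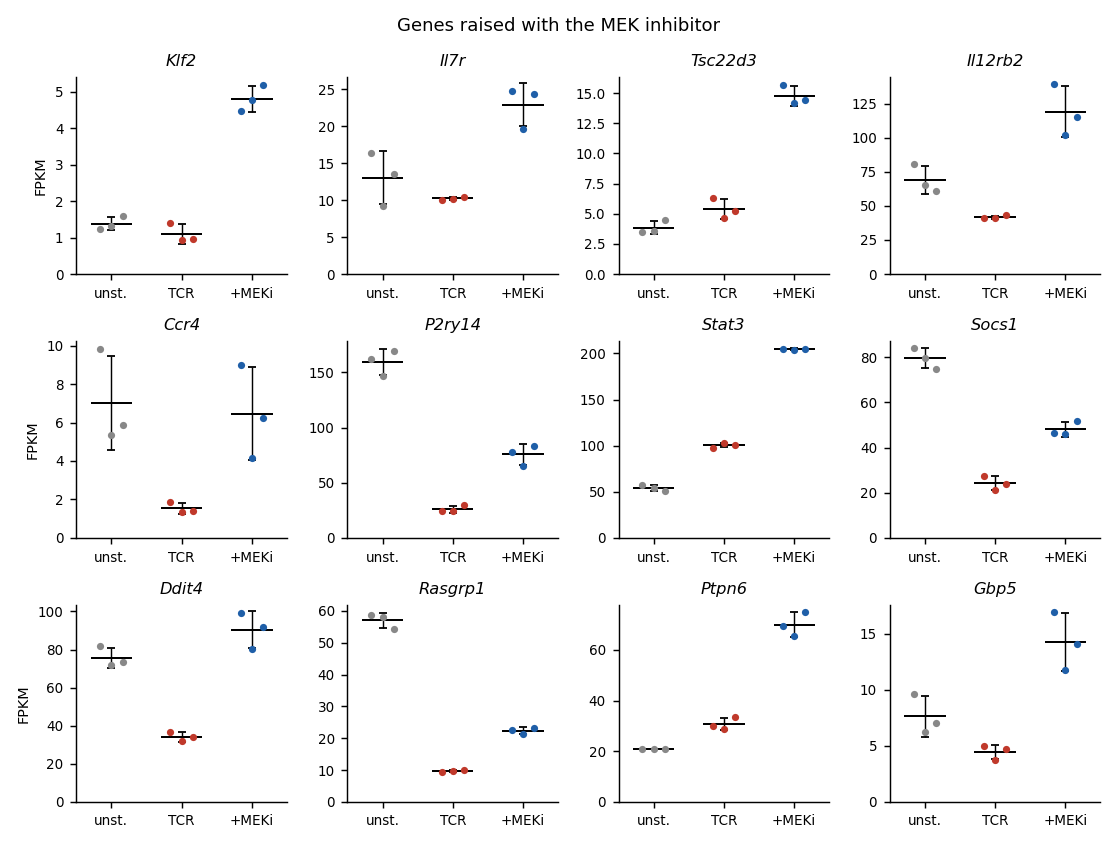
FPKM (vertical axes, linear from 0) of 12 genes higher with MEKi than with TCR alone in the unstimulated, TCR and MEKi cultures, with points for the 3 cultures of a group, a line at the mean and bars for the SD. In each panel the MEKi points lie above all TCR points, for P2ry14, Socs1 and Rasgrp1 they lie below the unstimulated points, and for Klf2, Stat3 and Ptpn6 above them.

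The small changes were many and of limited size. Their median was 1.31-fold, and 804 of the 3705 exceeded 1.5-fold. The TPM scale moves the MEKi cultures up against the TCR cultures for nearly all genes at once, so by construction 1972 of 1972 small rises and 363 of 1733 small falls passed in the same direction there. After quantile normalisation 1699 of the small rises and 1296 of the small falls did. The summed level of the genes with a small fall went from between 219305 and 234923 FPKM to between 171686 and 175878 FPKM, and that of the genes with a small rise from between 36872 and 37794 FPKM to between 47648 and 48907 FPKM. By level, the leading small falls included Ifng and Gzma, with Tpt1 (-0.30), encoding translationally controlled tumour protein, and the ribosomal protein genes Rpl32 (-0.26), Rps4x (-0.27), Rps18 (-0.22) and Rpl4 (-0.19). On the TPM scale the changes of Rpl4 (0.0672) and Rps18 (0.0446) were above zero. After quantile normalisation the change of each of these 4 ribosomal genes and of Tpt1 was above zero, and Rps18 (0.31) and Rpl4 (0.15) passed the test there. The leading small rises were the surface markers Thy1 (0.30), Ly6a (0.33) and Cd8a (0.21), the IL-2 receptor chain Il2ra (0.27), the transcription factor Bhlhe40 (0.40), and Plac8 (0.26), Rap1b (0.21) and Arhgdia (0.31).

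Genes of the cell cycle were frequent among the small rises. Of 72 mitosis and kinetochore genes 58 showed a small rise, 14 did not pass and 0 fell, where 18.9% of all genes rose. The median was 0.46 and 57 rose on all 3 scales, where 16.4% of all genes rose and 5.78% fell on all 3. Mki67, the proliferation marker Ki-67, went from 13.2, 17.3 and 17.9 to 25.4, 26.8 and 26.3 FPKM (0.71 ± 0.12, adjusted p = 0.000416). Plk1, a mitotic kinase, went from 20.1, 19.1 and 21.4 to 27.8, 30.8 and 29.8 FPKM (0.54 ± 0.07), and Aurkb changed by 0.63. Of 56 DNA replication and E2F genes 41 rose, 1 of them called, 15 did not pass and 0 fell, with a median of 0.32. E2f2, an activator of replication genes, was the called one, from 1.25, 1.23 and 1.21 to 2.7, 2.38 and 3.32 FPKM (1.11 ± 0.13). Mcm2 (0.41) and Mcm6 (0.49), subunits of the replicative helicase, rose, while Pcna, the sliding clamp, did not pass (0.01 ± 0.05). Of the 15 G1 genes 9 rose, among them the inhibitor Cdkn1b (0.74), 2 showed small falls and Ccnd1 was called lower, so Ccnd1, Ccnd2 (-0.42) and Ccnd3 (0.36) did not share a direction. The fall of Ccnd2 did not pass on the TPM (-0.16) or quantile (-0.24) scale, and Ccnd1 was not called with a pseudocount of 1 (-0.86).

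Ribosome, energy and protein turnover genes showed many small falls on the FPKM scale. The TPM scale raises nearly all genes together. There the medians of ribosome biogenesis (0.01), cytosolic ribosomal proteins (0.02), the respiratory chain (0.13), the proteasome (0.07) and ER chaperones (0.05) were above zero and below the median of all genes, 0.27. Of 101 ribosome biogenesis and RNA polymerase I genes 77 showed a small fall and 0 rose, where 18.2% of all genes fell, but the median of -0.25 became 0.01 on the TPM scale, where 7 fell and 10 rose, and -0.17 after quantile normalisation, where 52 fell and 1 rose. Of 80 cytosolic ribosomal protein genes 49 showed a small fall, with a median of -0.24 that became 0.02 on the TPM and 0.03 on the quantile scale, where 0 fell. Of 77 respiratory chain and ATP synthase genes 19 fell on the FPKM scale (24.7%, against 18.2% of all genes), and on the TPM scale, where 50.2% of all genes rose, 30 rose and 0 fell. For 47 proteasome genes the counts were 27 small falls and 3 small rises on the FPKM scale, and 0 falls and 12 rises on the TPM scale. Of 36 ER chaperone and unfolded protein response genes 22 showed small falls and 2 small rises, and on the TPM scale 3 fell and 9 rose. Glycolysis genes (36) had 8 small rises, 6 small falls and 1 called fall, sterol synthesis genes (36) 9 small rises and 10 small falls, and MHC class I genes (22) 9 small rises and 2 small falls. Rises made up 22.2%, 25% and 40.9% of these classes and falls 19.4%, 27.8% and 9.09%. Of all genes 18.9% rose and 18.2% fell, so the glycolysis shares lay near those of all genes.

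**Figure D5:**
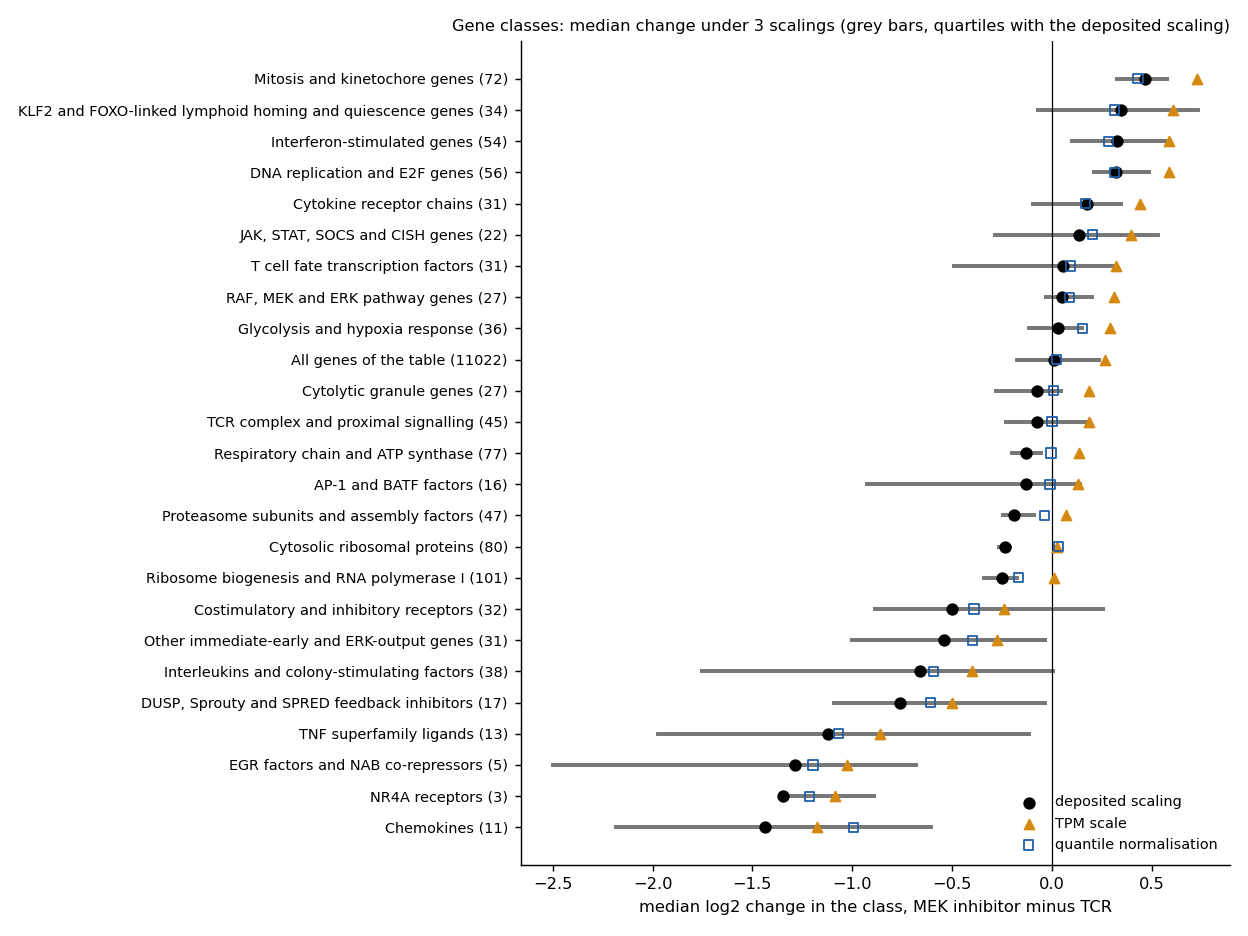
Median log2 change between MEKi and TCR alone (horizontal axis) of each gene class and of all genes, with the number of measured genes in brackets, on the deposited FPKM scale (circles, with grey bars from the lower to the upper quartile), the TPM scale (triangles) and after quantile normalisation (squares). Chemokine, EGR, TNF ligand and cytokine medians stay below zero on all 3 scales and mitosis and DNA replication medians above it, while the ribosomal protein, ribosome biogenesis, respiratory chain and proteasome medians are below zero on the FPKM scale and above it on the TPM scale.

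Members were also set beside the PI3Kdi cultures, which share peptide and IL-2, by the direct difference between the inhibitors (MEKi minus PI3Kdi). In that difference 341 genes (3.09%) were called and 28.9% passed at an adjusted p under 0.05, 14.5% higher and 14.4% lower with MEKi. DUSP, Sprouty and SPRED genes were lower in 11 of 17 cases and higher in 1, costimulatory and inhibitory receptors lower in 17 of 32 and higher in 5, and chemokines lower in 6 of 11 and higher in 2. The log2 difference from PI3Kdi was -1.81 for Spry1 (adjusted p = 4.08e-06), -1.59 for Dusp6 (adjusted p = 3.01e-08) and -1.67 for Egr2, which read 86.9, 102 and 103 FPKM with PI3Kdi. Spp1 (-1.82), Ccl5 (-2.06), Cd63 (-2.93) and Tigit (-1.87) were also lower with MEKi. Higher with MEKi were Cd70 (1.79), Ptpn6 (1.80), Socs1 (1.62), the interleukin-23 subunit Il23a (1.62), the kinase Ikbke (1.61) and Stat3 (0.91, adjusted p = 1.96e-08). For Il2 the difference was -0.81 (adjusted p = 0.0911), for Tnf -0.44 (adjusted p = 0.0996), for Il3 0.46 (adjusted p = 0.189) and for Il10 -0.19 (adjusted p = 0.279), and none of these passed the test, although Tnf did with the replicate block (adjusted p = 0.0385) and without MEKi culture 2 (-0.71, adjusted p = 0.00407). With a pseudocount of 1 in the limma fit, Il2 (adjusted p = 0.0103) and Il3 (adjusted p = 0.00838) passed as well. A difference that misses the threshold does not show that the inhibitors act alike on these genes. For 25 ATF4 target and amino acid synthesis genes the median change against TCR alone was 0.05, with 4 rises and 0 falls, and the median difference from PI3Kdi was 0.55, with 23 of 25 higher with MEKi and 0 lower.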

How the data were processed

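Gene mRNA was measured by paired-end RNA sequencing (Illumina TruSeq Stranded mRNA) of 12 CTL cultures. The authors aligned reads with STAR 2.4.2a to mm10, counted them per RefSeq gene with Subread 1.5.0, removed genes with low counts, applied TMM scaling and deposited FPKM per gene, computed with edgeR from the summed length of non-overlapping exons. Whether counting used strand is not given in the sources used here. All value columns were assigned to cultures by their labels. Values were transformed to log2(FPKM + 0.1) and tested with limma 3.58.1 in R 4.3.3 (1 mean per group over 4 groups, empirical Bayes with an intensity trend, two-sided, Benjamini-Hochberg over 11022 genes). The study's own tests ran on counts, which were not analysed here. Gene names matched RefSeq for 10974 of 11022 rows.

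The members and the 54 gene lists were chosen with earlier results of these data known. Named genes are the 15 largest called changes in each direction at a mean of at least 1 FPKM in either compared group, provided that each of the 3 same-numbered pairs shared the direction, the first 6 members and up to 6 called members per direction of each list, and the 8 most abundant small changes per direction, of which 1 is not reported here. Named outside this rule, after their values were seen, were Bach2, Batf, Batf3, Clcf1, Dusp1, Ebi3, Fyn, Gpr183, Hemgn, Ifngr1, Ikbke, Il12rb1, Il13, Il23a, Il6, Kctd15, Ltb, Mcm6, Mki67, Mmp13, Pcna, Pdgfb, Rgs16, Rgs2, Slc18a2, Slc27a6, Spp1, Srxn1 and Tnfsf11.

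Depth was estimated from the step between low FPKM values. Of 106 to 156 low values per library, 54.7% to 63.5% lay within 0.15 of a whole read, where chance gives 30%, so whole reads could not be recovered and no count test was run. A floor of 3 reads per library corresponds to 0.306 to 0.384 FPKM for a transcript of 1 kb and covers counting error only. Same-numbered replicates shared deviations from their group means (r = 0.153, 0.122 and 0.182 for replicates 1, 2 and 3 over 9899 genes), so the numbers were taken as pairing the cultures, and a fit with a replicate block was run. Other alternatives were pseudocounts of 1 and 0.01, a minimum mean of 1 FPKM over the 6 cultures, TPM and quantile scales, the 6 cultures alone, limma's treat, and each culture left out. The code was tested on simulated data.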

Additional observations from a re-analysis of the deposited data

How the results depend on the processing

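Counts of called genes (385, of which 108 higher and 277 lower) varied with the test, the pseudocount and the scale. With a pseudocount of 1 they were 201, 29 and 172, with limma's treat against a 2-fold change 106, 6 and 100, and on the TPM scale 578, 366 and 212, with 5169 small rises and 426 small falls in place of 1972 and 1733. Among genes with a mean of at least 1 FPKM over the 6 cultures, 71 were called higher and 213 lower. Of the 385 calls 201 remained with a pseudocount of 1, 377 with 0.01, 318 on the TPM scale, 363 after quantile normalisation and 384 in a fit of the 6 cultures alone, and 0 changed sign in any of these settings. Leaving out 1 culture gave 377 to 440 calls, 102 to 140 higher and 275 to 300 lower, 1497 to 1698 small rises and 1290 to 1476 small falls, and kept 344 to 370 of the 385. With the replicate block, which follows the pairing of the cultures, the counts were 389, 112 and 277, with 2114 small rises and 1843 small falls, and apart from Jun, and from Tnf in the difference between the inhibitors, it changed no other call of a named gene.

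Directions of named genes that passed the test on either scale reversed on the TPM scale for Batf (0.18), Gzmb (0.19), Rpl4 (0.0672) and Rps18 (0.0446), and after quantile normalisation for Gzmb (0.51), Rpl32 (0.20), Rpl4 (0.15), Rps18 (0.31), Rps4x (0.0727) and Tpt1 (0.15). Dusp1, Fasl, Jun, Junb and Pdcd1 on the TPM scale, and Batf, Junb and Pdcd1 after quantile normalisation, also changed sign without passing on either scale. Of 117 named called genes 98 kept their call under TPM and 108 under quantile normalisation. Under TPM the calls of Bcl2a1b, Ccr1, Cxcr3, Dusp4, Dusp9, Fosl1, Hemgn, Il24, Il6 and Jak2 were lost. So were those of Ltb, Ndrg1, Pim3, Rgs2, Spry4, Tbx21, Tigit, Tnfrsf12a and Zeb2. Quantile normalisation removed the calls of Bcl2a1b, Ccl3, Ccl4, Cxcl10, Il10, Jak2, Ndrg1, Pim3 and Usp18. Each of these genes kept its direction. Calls lost when 1 culture was left out were Bmf, Dusp9, Gpr183 and Usp18 without TCR culture 1, Cxcl10, Hemgn and Usp18 without TCR culture 2, Ccr1, Cxcr3, Dusp9 and Il6 without TCR culture 3, Asb2, Cxcl10, Cxcr3, Dusp9, Hemgn, Ikbke, Pim3, Satb1 and Tnfrsf12a without MEKi culture 1, Bmf and Il6 without MEKi culture 2, and Bmf, Ccr1, Dusp9, E2f2, Spry4 and Usp18 without MEKi culture 3. Asb2 then changed by 1.31, Cxcr3 by -0.68 and -0.91, and Usp18 by 0.97, 0.92 and 0.82, while the other rises lay between 0.83 and 0.99, the falls of Ccr1, Dusp9, Hemgn and Spry4 between -0.99 and -0.87, and those of Il6, Pim3 and Tnfrsf12a close to the 2-fold limit, and each gene of this list kept its direction. Of 54 named small changes, 3 to 7 no longer passed the test when 1 culture was left out. The genes that failed in at least 1 of these fits were Ccr7, Ctla4, Nr4a3, Plac8, Rap1b, Rpl32, Rpl4, Rps18 and Rps4x, and each kept its direction. The count of genes that differed between the inhibitors, among those named for it, was 13 and ranged from 13 to 15, with Il2 (adjusted p = 0.0103) and Il3 (adjusted p = 0.00838) added at a pseudocount of 1 by limma and Tnf added with the block or without MEKi culture 2. At this depth changes of genes near the floor have wide errors, and the cause of the differences between scales was not tested.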

Other observations

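Trafficking and transport genes form further groups in the same comparison. Of 9 chemokine receptors measured, 2 were called lower, 2 showed small falls, 2 small rises and 1 was called higher. Falls made up 44.4% and rises 33.3% of this small class, against 18.2% and 18.9% of all genes. Cxcr3, the receptor for interferon-induced chemokines, went from 1.98, 1.88 and 4.25 to 0.95, 1.3 and 1.29 FPKM (-1.04 ± 0.24, adjusted p = 0.00353 by limma, and -0.68 without TCR culture 3), and Ccr1 from 2.61, 2.78 and 3.03 to 1.48, 1.48 and 1.04 FPKM (-1.03 ± 0.16). Ccr7, the receptor for entry into lymph nodes, showed a small rise with overlapping groups, from 38.4, 30 and 29.2 to 53.2, 35 and 45.3 FPKM (0.44 ± 0.15, adjusted p = 0.0327). RGS proteins shorten signals of chemokine receptors, and of 12 members 1 was called lower, 4 showed small falls and 4 small rises. Rgs2 was the called one, from 21.2, 19.8 and 16.7 to 9.02, 8.68 and 8.18 FPKM (-1.14 ± 0.14), and the abundant Rgs16 went from 935, 950.2 and 929.8 to 500.4, 545 and 507 FPKM (-0.86 ± 0.06) without overlap. Rgs2 was not called on the TPM scale. Falls made up 41.7% of the RGS class and rises 33.3%, against 18.2% and 18.9% of all genes.

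Of 144 solute carriers 8 were called lower and 0 called higher, with 24 small falls, 30 small rises and 82 that did not pass. Called falls made up 5.56% of them, against 2.51% of all genes. Falls of any size made up 22.2% and rises 20.8%, near the 18.2% and 18.9% of all genes. Slc27a6, a fatty acid transporter, read 5.01, 5.89 and 5.93 FPKM with TCR alone and 0.34, 0.84 and 0.38 FPKM with MEKi (-3.29 ± 0.22). Slc18a2, a vesicular monoamine transporter that was listed at 0 in all 3 unstimulated cultures, went from 8.49, 9.03 and 7.86 to 1.97, 2.03 and 1.35 FPKM (-2.20 ± 0.17). The stress-induced mTORC1 inhibitor Ddit4 was the single called rise among ATF4 target genes, from 36.9, 31.7 and 34 to 99.1, 80.3 and 92 FPKM (1.40 ± 0.09), and Ndrg1, a hypoxia-response gene, the single called fall of the glycolysis and hypoxia class, from 228, 219 and 206 to 108, 107 and 98.3 FPKM (-1.06 ± 0.10). Ndrg1 was not called on the TPM or quantile scale. Of 285 zinc finger (Zfp) genes 234 did not pass, 30 showed small rises and 19 small falls, and the median of 0.02 became -0.02 after quantile normalisation. Of 8 GIMAP GTPases of lymphocytes 4 showed small rises and 1 a small fall, 50% and 12.5% against 18.9% and 18.2% of all genes. Cd4, a marker of helper T cells listed among other cell types, went from 2.65, 2.54 and 2.87 to 0.66, 0.41 and 0.28 FPKM (-2.40 ± 0.29). The other measured gene of that list, Zbtb7b, encoding a transcription factor of the CD4 lineage, showed a small rise from 5.61, 5.05 and 5.22 to 9.38, 9.49 and 11 FPKM (0.90 ± 0.12), and the part of either in any result was not tested.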
